A study of Mus musculus with 4 samples.

Results

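The E2F family and its retinoblastoma (RB) partners were examined in the stomach of mice that overexpress *c-Myc* in parietal cells. The genes were taken by name: 10 of the 46095 gene symbols in the table, namely the activators *E2f1*, *E2f2* and *E2f3*, the repressors *E2f4*, *E2f5* and *E2f6*, the atypical members *E2f7* and *E2f8*, and the pocket proteins *Rb1* and *Rbl1*. Gastric RNA of 12-week-old C57BL/6 mice was sequenced, with 2 WT samples and 2 *Atp4b-cre; Myc*OE samples, which the labels call MYC-KI. In MYC-KI mice, Cre driven by the *Atp4b* promoter, which is active in the parietal cell lineage, turns on a human *c-Myc* transgene from 1 floxed allele. The WT mice carried floxed *Myc* alleles without Cre, so the controls share the allele but lack the recombinase. The measurement is the raw number of reads per gene, between 30260305 and 41463647 per sample, and all 10 members passed the filter on low counts.

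E2F proteins bind DNA at promoters of genes for DNA synthesis and mitosis. Most do so as dimers with a DP protein, encoded by *Tfdp1* or *Tfdp2*, while E2F7 and E2F8 bind without DP. In resting cells pocket proteins hold E2F in a repressive state, and phosphorylation by cyclin-dependent kinases (CDKs) in late G1 releases it. In the stomach, division is normally restricted to progenitors in the isthmus of the gland, whereas parietal and chief cells rarely divide. MYC is known to act on this switch at several points, including the genes for activator E2F and D-type cyclins.

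The table could not be read as it stands, because the names and the MYC-KI counts follow different sort orders. The counts of both MYC-KI columns were therefore given, row by row, to the list of names put in character-code order (capitals before lower case), and WT counts were left in place. Across all genes, which are not independent replicates, log2 levels of the genotypes correlated with r = 0.524 as deposited and 0.985 after re-sorting. The E2F rows show the shift directly, since they follow each other in the table and each of the 8 takes its MYC-KI counts from the row above. As deposited, the row of *E2f3* carries 2456 and 2889 MYC-KI reads, the values that re-sorting gives to *E2f4*. Likewise the 1046 and 1149 reads beside *E2f2* go to *E2f3*, and the 1122 and 1209 beside *E2f7* go to *E2f8*. When the MYC-KI counts were slid along the 8 E2F rows by up to 3 rows in either direction, r of the log2 levels with WT was 0.966 for the move of 1 row that re-sorting makes, -0.28 with no move, and between -0.19 and 0.32 for the other moves. In windows of 61 rows around the 10 members, r lay between 0.964 and 0.984 after re-sorting, against -0.058 to 0.568 before. The deposited rows of *Rb1* and *Rbl1* carry the reads of *Rnasek* and *Rnf122*. Read as deposited, all 10 members would be called, but so would 84.1% of all tested genes. All values below are from the re-sorted table unless the deposited one is named.

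**Figure D1:**
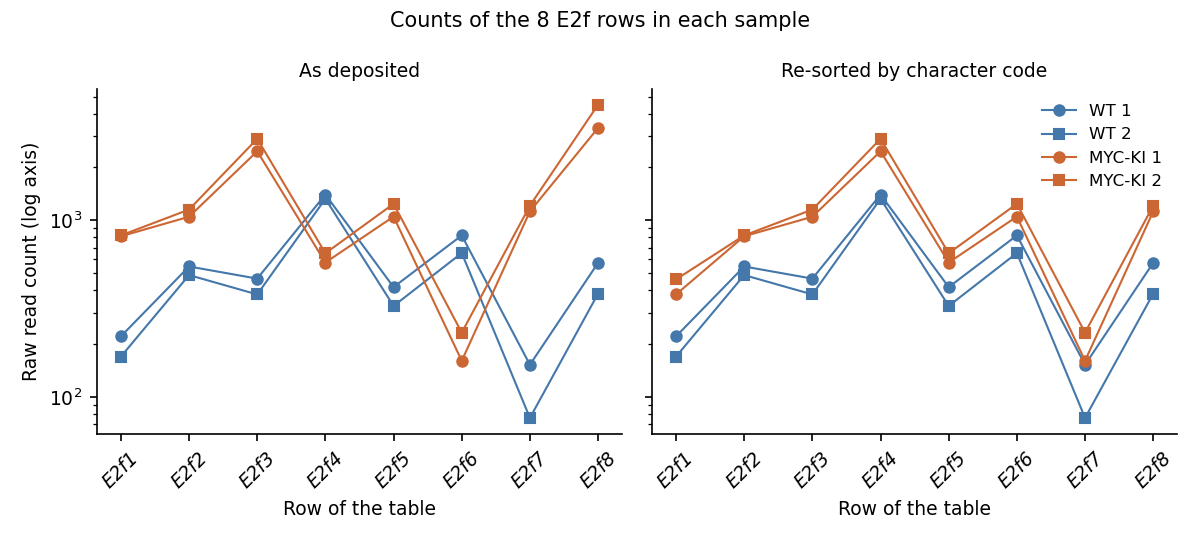
Raw read counts (log axis) of the rows *E2f1* to *E2f8* in the 2 WT and 2 MYC-KI samples, as deposited (left) and after re-sorting (right). After re-sorting, the profile of the MYC-KI samples over the 8 genes runs parallel to that of WT, with r = 0.966 against -0.28 as deposited.

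A gene was called when its adjusted p-value from edgeR's quasi-likelihood test was under 0.05 and its change was above 1.5-fold in either direction, the thresholds of the study's methods. Of the 10 members, *E2f3*, *E2f4* and *E2f8* were called higher in MYC-KI mice and none was called lower. Among all 17643 tested genes, 1892 (10.7%) were called, 5.65% higher and 5.08% lower. The 8 E2F genes had both MYC-KI samples above both WT samples, against 33.3% of all tested genes. *Rb1* had both below, against 31.5%, and *Rbl1* overlapped. The median log2 fold change over the 10 members was 0.41, compared with 0.01 over all tested genes. One member of each E2F class was thus called. The labels do not say whether samples of a genotype come from separate mice or litters, so p-values measure only the spread between these samples.

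Promoter sequences were read from RefSeq (GRCm38.p6, the assembly behind the mm10 build that the labels name), 250 bases before and 50 after each start, and 7 of the 10 members had an entry, with 9 promoters. *E2f4*, *E2f5* and *Rb1* had none. They were searched on both strands for the E2F words TTTCCCGC, TTTCGCGC, TTTGCCGC and TTTGGCGC and for the MYC E-box CACGTG, none of which overlapped another. An E2F word was found in 4 of the 9 promoters (44.4%), those of *Rbl1*, *E2f2*, *E2f7* and the upstream start of *E2f3*, against 2.26% of all 32851 promoters. The E-box was found in 1, the downstream start of *E2f3*, against 7.15% of all. Among the partner lists described below it lay in 4 of 11 promoters of the DP and MuvB list (36.4%) and 2 of 6 of the cyclin and kinase list (33.3%). The *Tfdp1* start shown here has an E-box at positions -231 to -226, outside the bases printed. Such a match is a description of letters, and the counts per gene do not separate transcripts from the 2 starts of *E2f3*. The 120 bases before the start are shown for both *E2f3* starts, *E2f8* and *E2f1*, the members with the largest fold changes, for *Rbl1*, a member near 0 that holds the word, and for 1 start of the dimer partner *Tfdp1*. Each is given in the direction of transcription, with E2F words and E-boxes in capitals.
*E2f3*, upstream start, chr13:29986064-29986183, minus strand: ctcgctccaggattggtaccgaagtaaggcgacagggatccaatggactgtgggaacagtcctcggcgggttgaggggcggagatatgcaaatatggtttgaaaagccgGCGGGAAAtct
*E2f3*, downstream start, chr13:29984392-29984511, minus strand: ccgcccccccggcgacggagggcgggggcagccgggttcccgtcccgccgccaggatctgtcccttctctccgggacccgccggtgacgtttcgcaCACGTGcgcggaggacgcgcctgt
*E2f8*, chr7:48881597-48881716, minus strand: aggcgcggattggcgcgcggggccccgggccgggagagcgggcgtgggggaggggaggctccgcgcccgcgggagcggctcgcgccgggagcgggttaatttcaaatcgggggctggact
*E2f1*, chr2:154569427-154569546, minus strand: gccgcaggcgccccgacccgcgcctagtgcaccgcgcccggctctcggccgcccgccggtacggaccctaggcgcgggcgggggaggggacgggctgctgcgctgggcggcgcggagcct
*Rbl1*, chr2:157204535-157204654, minus strand: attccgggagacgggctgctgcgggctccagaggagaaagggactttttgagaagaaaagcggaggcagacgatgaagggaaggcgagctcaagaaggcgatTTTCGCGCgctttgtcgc
*Tfdp1*, chr8:13338631-13338750, plus strand: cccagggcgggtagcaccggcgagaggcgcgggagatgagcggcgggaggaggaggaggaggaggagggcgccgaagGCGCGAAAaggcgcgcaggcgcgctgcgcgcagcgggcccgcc

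The activators drive entry into S phase, and of the 3 only *E2f3* passed the thresholds. *E2f3* (chromosome 13, 29906575 to 29986063, minus strand, GENCODE annotation of GRCm38) had 467 and 380 reads in WT and 1046 and 1149 in MYC-KI. In CPM, reads scaled to the TMM-normalized library size, these were 13.9 and 13.6 against 30.8 and 25.7. Both MYC-KI samples lay above both WT samples, and the WT samples were nearly equal. Its log2 fold change was 1.04 (standard error 0.15, adjusted p = 0.0290), the largest of the 10 members.

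*E2f1*, the founding activator, which can also drive cell death genes, lies on chromosome 2 (154559407 to 154569892). It had 220 and 169 reads in WT and 380 and 462 in MYC-KI, or 6.56 and 6.06 against 11.2 and 10.3 normalized CPM. The genotypes did not overlap, but the log2 fold change of 0.77 (standard error 0.18) had an adjusted p-value of 0.0624 and was not called. DESeq2, the tool of the study's methods, called it (0.76, adjusted p = 0.0104), and so did edgeR scaled by library size alone (0.99, adjusted p = 0.0299).

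*E2f2*, the remaining activator, had 547 and 489 reads in WT and 811 and 820 in MYC-KI. Its normalized CPM were 16.3 and 17.5 against 23.9 and 18.4, so that MYC-KI replicate 2 lay only just above WT replicate 2. The log2 fold change was 0.32 (95% interval -0.16 to 0.80, adjusted p = 0.282), an interval that holds both 0 and values past the threshold. It was 0.12 without MYC-KI replicate 1 and 0.50 without replicate 2, and 0.80 in the deposited row, whose MYC-KI reads belong to *E2f3*.

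*E2f4*, the main E2F of resting cells and the DNA-binding partner of p107 and p130, was the most abundant member in both genotypes. It lies on chromosome 8 (105297663 to 105305370) and had 1396 and 1322 reads in WT and 2456 and 2889 in MYC-KI. The normalized CPM rose from 41.6 and 47.4 to 72.4 and 64.7, with every MYC-KI sample above both WT samples. The log2 fold change was 0.62 (standard error 0.11, adjusted p = 0.0401), close to the fold threshold, and in the deposited table, where the row carries the reads of *E2f5*, it was -1.44.

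*E2f5*, a close relative of *E2f4* with the same role, had 418 and 327 reads in WT and 576 and 650 in MYC-KI. *E2f6*, which lacks the transactivation and pocket-binding region and represses through a Polycomb-type complex, had 820 and 652 reads against 1048 and 1238. Their means were 12.1 ± 0.519 and 23.9 ± 0.752 normalized CPM in WT (SD, n = 2) and 15.8 ± 1.72 and 29.3 ± 2.25 in MYC-KI (SD, n = 2). Neither overlapped between the genotypes and neither was called, with log2 fold changes of 0.38 (95% interval -0.04 to 0.80, adjusted p = 0.173) and 0.29 (-0.02 to 0.61, adjusted p = 0.166). In the deposited table *E2f6* has the reads of *E2f7* and a log2 fold change of -2.21.

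The atypical genes encode repressors with a pair of DNA-binding domains that close a feedback loop on activator E2F. *E2f8* (chromosome 7, 48866429 to 48881596) had 574 and 384 reads in WT and 1122 and 1209 in MYC-KI. In normalized CPM this was 17.1 and 13.8 against 33.1 and 27.1, without overlap. Its log2 fold change was 0.96 (standard error 0.18, adjusted p = 0.0444), the second largest of the members. Another annotated transcript on the opposite strand, *Gm2788*, shares 11.2% of the exon bases of *E2f8*, and since no strand setting is stated, reads of the pair cannot be told apart.

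*E2f7* was the least abundant member, with 152 and 76 reads in WT and 160 and 231 in MYC-KI. At 4.53 and 2.72 against 4.72 and 5.17 normalized CPM, WT replicate 1 was nearly as high as MYC-KI replicate 1. The log2 fold change of 0.45 (95% interval -0.47 to 1.36, adjusted p = 0.417) was 0.12 without WT replicate 2 and 0.86 without WT replicate 1. This interval holds both 0 and the value of *E2f8*.

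The pocket proteins stayed near their WT values. *Rb1*, the retinoblastoma tumor suppressor (chromosome 14, 73183673 to 73325822), had 1404 and 1080 reads in WT and 1252 and 1642 in MYC-KI, or 41.8 and 38.7 against 36.9 and 36.8 normalized CPM. Its log2 fold change was -0.13 (95% interval -0.38 to 0.12, adjusted p = 0.393), and the sign turned to 0.094 when scaled by library size alone. Part of its exons is shared with genes on the opposite strand, 8.11% with *Rcbtb2* and 6.78% with *Lpar6*, a receptor gene inside *Rb1* whose own row gave a log2 fold change of 1.13. *Rbl1*, which encodes p107, a pocket protein of cycling cells, had 22.0 and 19.6 normalized CPM in WT and 22.2 and 19.7 in MYC-KI. The log2 fold change was 0.0097 (95% interval -0.37 to 0.39, adjusted p = 0.969), and its sign turned under DESeq2 and under the size factors of DESeq2. Both intervals end below the fold threshold on either side. The deposited rows of these 2 genes give -6.11 and -2.47.

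**Figure D2:**
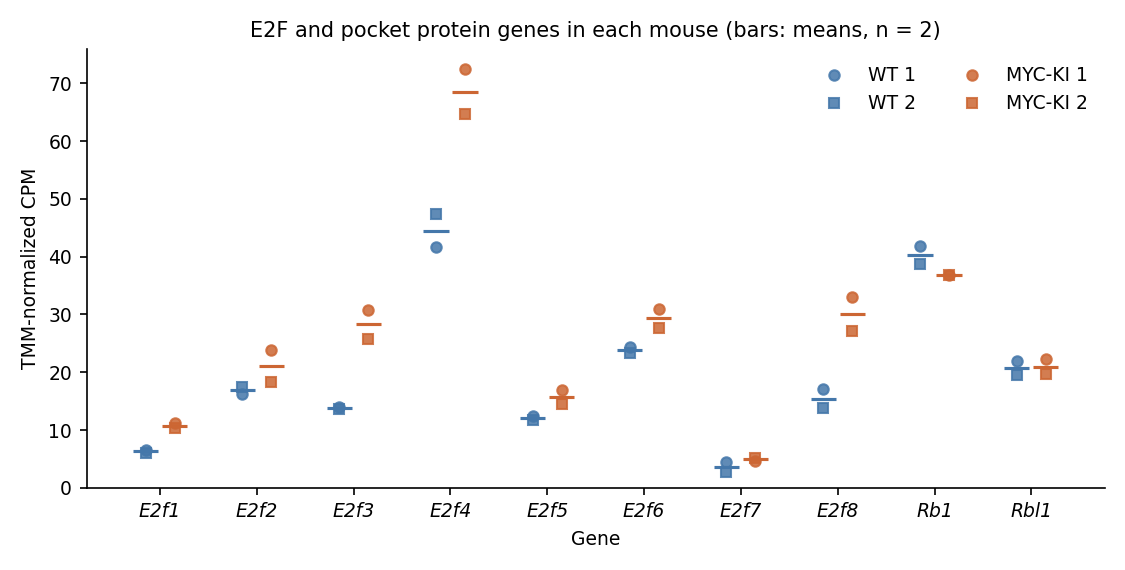
TMM-normalized CPM of the 10 members in each sample, with circles for replicate 1, squares for replicate 2 and bars for the means of 2 samples. Both MYC-KI samples lie above both WT samples for the 8 E2F genes, from a ratio of means of 1.23 for *E2f6* to 2.05 for *E2f3*, while *Rb1* and *Rbl1* have ratios of 0.915 and 1.01.

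Leaving out 1 sample at a time kept the sign of all E2F genes, with log2 fold changes of 0.90 to 1.16 for *E2f3*, 0.53 to 0.72 for *E2f4*, 0.81 to 1.13 for *E2f8* and 0.71 to 0.83 for *E2f1*. The calls were less stable than the values. Without MYC-KI replicate 1, *E2f4* (0.54, adjusted p = 0.0720) and *E2f8* (0.81, adjusted p = 0.0771) were not called, while *E2f3* was (0.90, adjusted p = 0.0438). With only 1 WT sample left, edgeR called 0 genes of the whole table. At an unadjusted p-value under 0.05 it had 3554 genes without WT replicate 1 and 3410 without WT replicate 2, where DESeq2 called 1222 and 1049. *E2f3* was then at 1.05 (adjusted p = 0.205) and 1.02 (adjusted p = 0.238) in edgeR, *E2f4* at 0.53 and 0.72, and *E2f8* at 1.13 and 0.81. With the replicate number as a block none of the 10 members was called (lowest adjusted p = 0.0655). WT replicate 2 also stood apart in sex-linked genes, with 17846 reads of *Xist* against 85 to 201 in the others and 5 reads of the Y-linked *Ddx3y* against 1861 to 2623. The labels give no sex, and its part in the values was not tested.

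Normalized CPM divided by the summed exon length allows levels to be compared between genes, although the annotation behind the counts is not given in the sources used here. On this scale (CPM per kb), *E2f4* led in WT with 18.1, followed by *E2f5* with 6.78 and *Rb1* with 6.70, whose samples overlapped each other. *E2f6* (4.22) came next, then *Rbl1* (3.47) and *E2f2* (3.46), again overlapping, *E2f8* (2.84) and *E2f3* (2.54), also overlapping, *E2f1* (2.0) and last *E2f7* (0.403). In MYC-KI, *E2f4* (27.95), *E2f5* (8.85) and *Rb1* (6.12) kept the first places. *E2f8* moved from the 7th place to the 4th (5.53) and *E2f3* from the 8th to the 5th (5.21), overlapping *E2f6* (5.18). The summed E2F level was 39.9 and 40.9 CPM per kb in WT and 65.2 and 56.8 in MYC-KI. The composition by class moved little: activators made up 20.0% and 19.6% of the sum in WT and 21.7% and 20.7% in MYC-KI, repressors 70.9% and 73.5% against 68.2% and 69.5%, and atypical members 9.14% and 6.93% against 10.1% and 9.77%. The ratio of *E2f3* to *E2f5* rose from 0.367 and 0.381 to 0.596 and 0.580. This pair sets the member with the largest fold change against a repressor that was not called, and does not stand for the classes. These sums and ratios carry no test.

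Samples of a genotype differed in one direction for most members. MYC-KI replicate 1 lay above replicate 2 for 9 of the 10 members (*E2f7* was the exception), against 49.7% of all tested genes, and WT replicate 1 above WT replicate 2 for 8 of 10, against 50.1%. Between the MYC-KI samples the same order held for 28 of 30 mitotic genes and 30 of 38 G1/S genes of the lists described below.

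The dimer partners of E2F moved in opposite directions. *Tfdp1*, which encodes DP1, had 2383 and 1895 reads in WT and 5153 and 6051 in MYC-KI, or 71.0 and 67.9 against 151.9 and 135.5 normalized CPM. *Tfdp2*, which encodes DP2, had 4164 and 2967 against 2345 and 3521, or 124.1 and 106.4 against 69.1 and 78.8. Both were called. *Tfdp1* had a log2 fold change of 1.05 ± 0.095 (SE, adjusted p = 0.0188), and *Tfdp2* one of -0.64 ± 0.12 (SE, adjusted p = 0.0455). On the scale per kb the ratio of *Tfdp1* to *Tfdp2* was 2.19 and 2.44 in WT and 8.40 and 6.57 in MYC-KI. The fall of *Tfdp2* was not called without MYC-KI replicate 1 (-0.55, adjusted p = 0.0807) or when scaled by library size alone (-0.42, adjusted p = 0.0785). The deposited row of *Tfdp1* gives -6.14.

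With *Tfdp1* and *Tfdp2* stood the third pocket protein gene and the MuvB group, a list of 11 genes. Of these 2 (18.2%) were called higher and 1 (9.09%) lower, against 5.65% and 5.08% of all tested genes. *Rbl2*, which encodes p130, the pocket protein of resting cells, had 70.7 and 68.2 normalized CPM in WT and 54.9 and 56.4 in MYC-KI. Its log2 fold change of -0.32 (95% interval -0.52 to -0.12, adjusted p = 0.0624) was under the fold threshold and not called. The share of *Rbl2* in the summed level per kb of the 3 pocket protein genes was 46.8% and 48.2% in WT and 42.5% and 44.3% in MYC-KI. *Mybl2*, the B-MYB factor that joins MuvB in S phase and is itself an E2F target, rose from 12.0 and 7.92 to 33.4 and 26.8 normalized CPM (log2 fold change 1.59, standard error 0.26, adjusted p = 0.0356). Without MYC-KI replicate 1 the value of *Mybl2* was 1.42 (adjusted p = 0.0566). *Foxm1*, which drives mitotic genes with B-MYB and MuvB, had a log2 fold change of 0.61 and an adjusted p-value of 0.0505, just past the limit. DESeq2 called it (0.60, adjusted p = 0.00608), as did both other filters on low counts and scaling by library size. The MuvB subunits *Lin9*, *Lin37*, *Lin52*, *Lin54* and *Rbbp4* were not called, with log2 fold changes between -0.27 and 0.82.

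**Figure D3:**
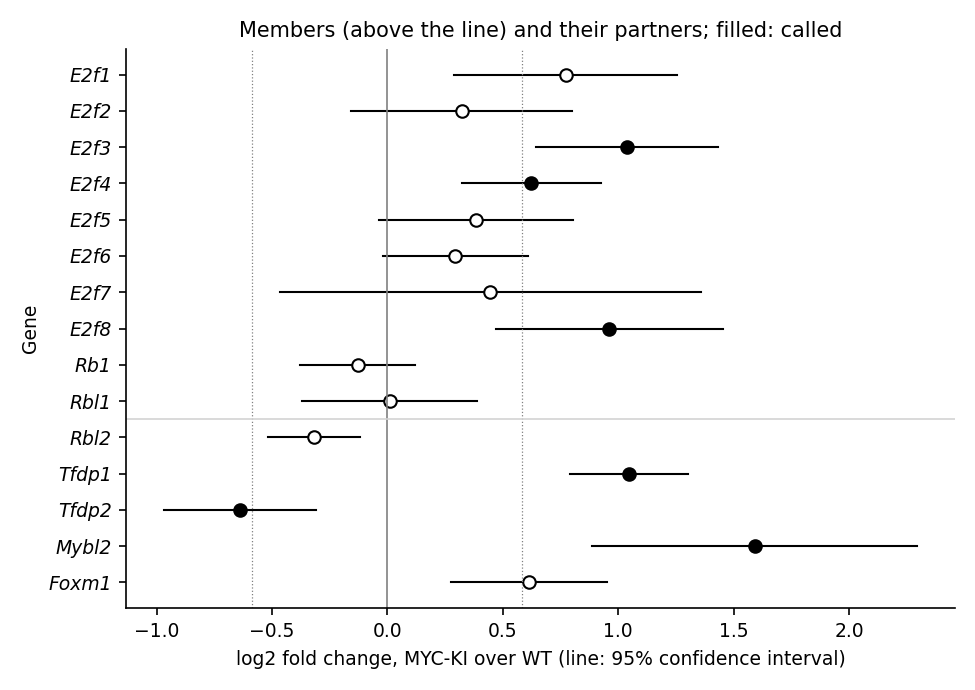
Log2 fold changes of MYC-KI over WT with 95% confidence intervals for the 10 members (above the line) and 5 partner genes. Filled points were called, open points were not, and dotted lines mark a 1.5-fold change on either side. *E2f3*, *E2f4*, *E2f8*, *Tfdp1* and *Mybl2* were called higher and *Tfdp2* lower, while *E2f1* and *Foxm1* lay past the line but had adjusted p-values of 0.0624 and 0.0505.

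Upstream of the pocket proteins, 5 of the 9 cyclin and kinase genes that phosphorylate RB (55.6%) were called higher and none lower. Among all tested genes, 5.65% were called higher and 5.08% lower. *Ccnd1*, cyclin D1, rose from 136 ± 9.02 to 229.7 ± 0.920 normalized CPM (SD, n = 2) and *Cdk4*, its kinase, from 76.1 ± 3.51 to 126.6 ± 10.9, with log2 fold changes of 0.75 (adjusted p = 0.0228) and 0.73 (adjusted p = 0.0278). *Ccne1*, cyclin E1, had 180 and 141 reads in WT and 428 and 446 in MYC-KI (log2 fold change 1.12, adjusted p = 0.0443). *Ccna2* (0.74, adjusted p = 0.0460) and *Cdk6* (0.59, adjusted p = 0.0253) passed too, the latter barely above the fold threshold. Without MYC-KI replicate 1 the calls of *Ccne1* (0.94, adjusted p = 0.0849) and *Ccna2* (0.57, adjusted p = 0.0602) were lost. *Ccnd2* (-0.09) and *Ccnd3* (-0.02) were not called.

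Of the 7 CDK inhibitor genes 1 (14.3%) was called higher and 1 lower, against 5.65% and 5.08% of all tested genes. *Cdkn2a*, whose locus encodes p16INK4A and p19ARF, had 0 reads in both WT samples and 18 and 34 in MYC-KI. Set against a floor of 3 reads per WT library it was at least 6.56-fold higher, and counts per gene do not separate its 2 products. Its adjusted p-value was 0.0421, and it was not called without MYC-KI replicate 1 (0.0913) or replicate 2 (0.106). *Cdkn2b*, p15INK4B, an inhibitor of CDK4 and CDK6, fell from 27.2 ± 4.62 to 14.8 ± 1.05 normalized CPM (SD, n = 2; log2 fold change -0.88, adjusted p = 0.0471). It was likewise lost without MYC-KI replicate 1 (-0.95, adjusted p = 0.0690) and replicate 2 (-0.80, adjusted p = 0.0773), and with library size (-0.65, adjusted p = 0.0608). *Cdkn1c*, the p57 gene, had 23.7 and 29.9 normalized CPM in WT and 15.5 and 16.1 in MYC-KI, past the fold threshold but not called (-0.76, adjusted p = 0.0539). *Cdkn1a* (0.02) and *Cdkn1b* (-0.05), the p21 and p27 genes, were not called either. In all, 4 of the 7 genes had both MYC-KI samples below both WT samples, against 31.5% of all tested genes. The median log2 fold change of the 7 genes was -0.05.

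Next come genes that E2F is known to drive at the G1/S boundary. Of 39 listed genes 38 were tested, and 18 (47.4%) were called higher and 0 lower, against 5.65% and 5.08% of all tested genes. The median log2 fold change was 0.75, and 37 of the 38 were above 0, against 8974 of all 17643 tested genes. *Ccne1* and *Ccne2* stand in both this list and that of cyclins, and *Ccna2* stands in that of cyclins and the mitotic list below. All 7 *Mcm* genes of the list, which encode the replicative helicase and, in *Mcm10*, a factor for its activation, were called, with log2 fold changes of 0.64 to 1.18. Among the called genes without overlap, the largest rises were those of *Orc1*, the origin recognition subunit (1.65, adjusted p = 0.0378), *Brca1*, a DNA repair factor (1.51, adjusted p = 0.0395), *Cdt1*, the licensing factor (1.31, adjusted p = 0.0228), and *Mcm10* (1.18, adjusted p = 0.0198). *Cdc25a*, a classical E2F target, was at -0.14 and the exception in sign. The count was 5 without MYC-KI replicate 1, when *Orc1* was lost (1.55, adjusted p = 0.0711), and 17 without replicate 2. With 1 WT sample left, where edgeR called no gene of the table, DESeq2 called 9 genes of the list without WT replicate 1 and 4 without WT replicate 2. The median log2 fold change was 0.62 to 0.82 with any 1 sample left out of the edgeR test. Scaled by library size alone, 29 genes were called with a median of 0.97. With the replicate number as a block 0 genes were called, at a median of 0.74. An E2F word lay in 14 of 37 promoters of this list (37.8%), against the same 2.26% of all promoters.

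Of the mitotic genes that act under B-MYB, MuvB and FOXM1, 13 of 30 were called higher (43.3%) and 0 lower. The shares over all tested genes were 5.65% and 5.08%. The median log2 fold change was 0.86. All 30 were above 0, against 8974 of all 17643 tested genes. *Aurka*, the spindle pole kinase, had a log2 fold change of 1.14 (adjusted p = 0.0476), *Hmmr* 1.02 (adjusted p = 0.0337), *Cdc20*, the activator of the anaphase-promoting complex, 0.997 (adjusted p = 0.0425) and *Nek2* 0.995 (adjusted p = 0.0384). Without MYC-KI replicate 1 these 4 had adjusted p-values of 0.0520 to 0.0863 and only 1 gene of the list was called, against 19 without replicate 2. Without either WT sample DESeq2 called 3 genes of the list. The median log2 fold change was 0.70 to 0.96 with any 1 sample left out of the edgeR test. Scaling by library size alone gave 28 called genes, DESeq2 25 and the replicate block 0, the last at a median of 0.85. In deposited order the median of the list was -0.64. *Mki67*, the gene of the proliferation marker Ki67, was at 141.3 ± 5.31 in WT and 186.1 ± 19.8 in MYC-KI (normalized CPM; SD, n = 2), a log2 fold change of 0.40 that was not called (adjusted p = 0.0821). An E2F word lay in 1 of 25 promoters of this list (4.0%), against 2.26% of all promoters.

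Smaller lists concern single members or RB. For comparison, 10.7% of all tested genes were called, 5.65% higher and 5.08% lower. Of the Polycomb-type complex in which E2F6 acts, 2 of 10 genes were called higher, *Pcgf6* (log2 fold change 1.24, adjusted p = 0.0410) and *Wdr5* (0.74, adjusted p = 0.0337), and *Max*, the shared dimer partner of MYC and MGA, was under the fold threshold at 0.56. The germline genes that E2F6 silences in somatic tissue (*Stag3*, *Smc1b*, *Slc25a31*, *Tuba3a*, *Tuba3b* and *Mael*) had at most 13 reads in any sample, and none passed the filter on low counts. Of the 3 genes for degradation of E2F proteins, *Ccnf*, cyclin F, was called (0.87, adjusted p = 0.0461), while *Skp2* (0.85, adjusted p = 0.0711) and *Fzr1* (0.00) were not. Among 11 chromatin corepressors recruited by RB only *Rbbp7* was called (0.89, adjusted p = 0.0268), a share of 9.09% that is near that of all tested genes. *Hdac1*, the deacetylase most closely tied to RB, was at 0.03. Of 7 tested cell death genes under E2F control 1 (14.3%) was called, *Bbc3*, which encodes PUMA (1.12, adjusted p = 0.0452). *Apaf1* (0.15) and *Trp73* (0.32) were not. Without either MYC-KI sample *Bbc3* was not called (adjusted p = 0.0720 and 0.0705), and without replicate 1 neither were *Ccnf* (0.0870) and *Pcgf6* (0.05004).

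**Figure D4:**
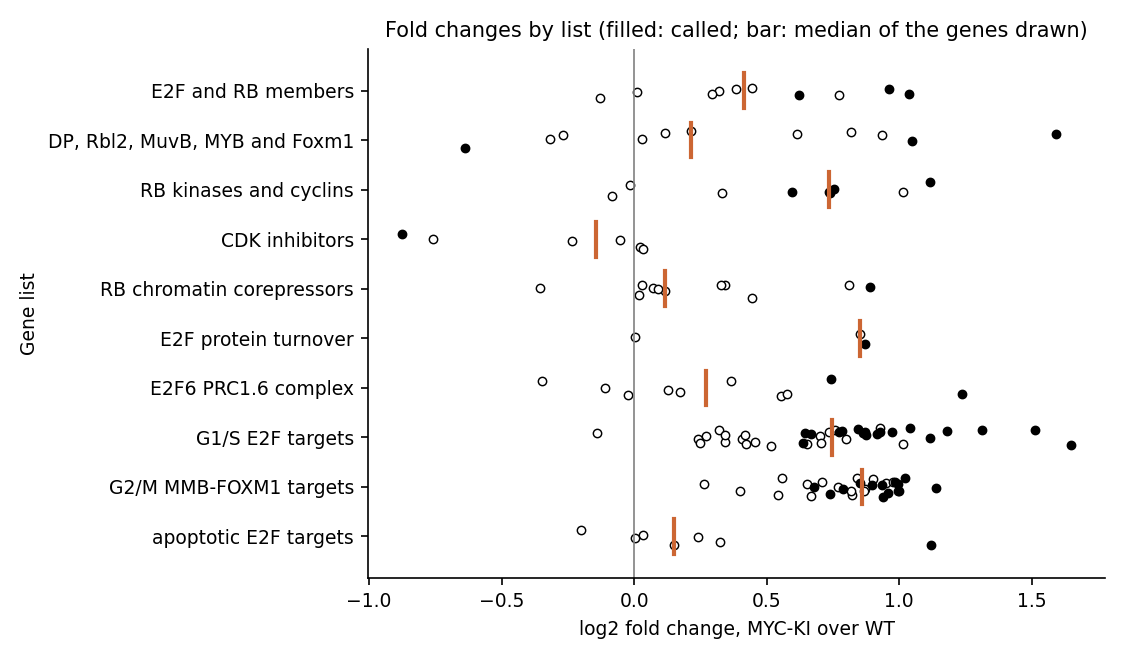
Log2 fold changes of MYC-KI over WT for the tested genes of each list, with filled points for called genes and a bar at the median of the genes drawn. *Cdkn2a*, which has no WT reads, and the untested E2F6 germline targets are not drawn, and the medians of the G1/S and mitotic lists lie at 0.75 and 0.86.

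Markers of gastric cell types also differed between the genotypes. All 6 parietal cell markers were called lower, and their sum fell from 11826 and 12002 normalized CPM in WT to 353 and 383 in MYC-KI. *Atp4b* itself, whose promoter drives the Cre, had a log2 fold change of -5.82 (adjusted p = 0.00635). Chief cell markers were called lower in 4 of 5 (sums of 80511 to 84853 against 1198 to 1518) and surface mucous markers in 4 of 4 (44889 to 53560 against 10957 to 17193). Leukocyte markers were called lower in 2 of 6 tested, where 5.08% of all tested genes were called lower. None of the smooth muscle or forestomach squamous markers was called. All 6 squamous markers had log2 fold changes above 0 with a median of 1.16, above the medians of the G1/S and mitotic lists. In 2 of the 6 both MYC-KI samples lay above both WT samples, against 33.3% of all tested genes. *Ivl* was among these 2 (1.74, adjusted p = 0.0655). The squamous sum was 2026 and 1123 normalized CPM in WT against 670 and 3535 in MYC-KI, so that the MYC-KI samples lay on either side of WT. The pancreatic acinar markers *Cpa1* and *Prss2* had 0 reads in every sample, and all 5 such markers together at no more than 0.983 normalized CPM. The only one tested, *Cela2a*, had 20 and 18 reads in WT and 0 in both MYC-KI samples and was called lower (adjusted p = 0.0379), whereas *Pnlip*, which did not pass the filter, had 1 and 0 reads in WT and 18 and 7 in MYC-KI. In bulk tissue fewer cells of a type and less RNA per cell cannot be told apart, and the part of these shifts in the E2F values was not tested. The mouse *Myc* row, which does not count as a measure of the human transgene, had 1062 and 759 reads in WT and 735 and 1091 in MYC-KI (log2 fold change -0.35, adjusted p = 0.163).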

How the data were processed

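Stomach RNA of 2 WT and 2 MYC-KI samples was analysed; the series' design text speaks of triplicates, and any further samples were not analysed here. The authors deposited raw read counts for 46095 gene symbols, without normalization; the submitters' processing notes name HISAT2 and mm10, while the counting tool, annotation and strand setting are not given in the sources used here. Both MYC-KI columns were re-sorted to the names in character-code order, and the deposited order was kept as an alternative. Genes were tested in edgeR 4.0.16 (R 4.3.3) with TMM normalization, filterByExpr, glmQLFit and glmQLFTest, no covariates, and Benjamini-Hochberg adjustment over 17643 genes. Standard errors are the absolute log2 fold change over the square root of F, and 95% intervals use the t distribution of the same fit. Depth was 30260305 to 41463647 reads per sample. The floor set for a gene without reads was 3 reads in that library, which covers counting error only. Alternatives were DESeq2 1.42.0, its size factors, library size, 2 other filters on low counts, no fold threshold, the replicate block and leaving out each sample, the last also under DESeq2, added after the data were seen. Exon lengths and positions are from GENCODE vM21. The tests were checked on simulated counts. The members and lists were chosen with earlier results of these data known. Named beyond the members are *Rbl2*, *Tfdp1*, *Tfdp2*, *Mybl2*, *Foxm1*, *Myc*, *Mki67*, *Atp4b* and up to 4 called genes per list with the largest fold changes and no overlap. Other names were added after their values were seen.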

Additional observations from a re-analysis of the deposited data

How the results depend on the processing

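The 8 E2F genes kept a positive log2 fold change under every normalization, filter, tool and left-out sample, and only the deposited row order turned any of them. In deposited order, 18580 of 22083 tested genes (84.1%) and all 10 members were called, and the log2 fold change was -1.44 for *E2f4*, -2.21 for *E2f6*, -2.47 for *Rbl1*, -6.14 for *Tfdp1*, -2.97 for *Foxm1*, 2.38 for *Myc*, -1.55 for *Mki67*, -2.06 for *Ccnd1*, -5.92 for *Ccna2*, -0.25 for *Cdk4*, 2.67 for *Cdkn2b*, -1.32 for *Wdr5*, -11.89 for *Cdt1* and -2.92 for *Bbc3*. The lists there had 8 (DP and MuvB), 6 (CDK inhibitors), 10 (corepressors), 3 (turnover), 6 (E2F6 complex), 5 (E2F6 germline targets), 32 (G1/S), 26 (mitotic) and 6 (cell death) genes called. Their medians turned to -6.14 (DP and MuvB), -0.94 (cyclins and kinases), 1.17 (CDK inhibitors), -1.53 (corepressors), -1.23 (E2F6 complex), -0.64 (mitotic) and -1.93 (cell death).

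Scaled by library size alone, 3011 genes were called, 75.5% of them higher against 52.6% with TMM, and the median of all tested genes moved from 0.01 to 0.23. *Rb1* turned to 0.094, *E2f1* was called beside the other 3 members, and the lists had 1 (CDK inhibitors), 3 (corepressors), 2 (turnover), 4 (E2F6 complex), 29 (G1/S) and 28 (mitotic) genes called. DESeq2 called 3234 genes, with 2 corepressors, 2 turnover genes and 25 mitotic genes, and put *Rbl1* at -0.00066; with its size factors in edgeR *Rbl1* was at -0.0034. Without a filter on low counts 2 corepressors, 2 turnover genes and 22 mitotic genes were called. With at least 10 counts in every sample 1 CDK inhibitor was called, since *Cdkn2a* is left out by construction. With no fold threshold 2 corepressors were called.

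With the replicate number as a block, 114 genes were called, 0 members (lowest adjusted p = 0.0655) and 0 genes of each list. No label ties the numbers to a shared litter or day, and samples with the same number hardly deviated together over all genes (r = 0.067), so the numbers were not taken as pairs. Replicate 1 was nonetheless above replicate 2 for most members in both genotypes (9 and 8 of 10), and the block lowered the standard error of *E2f8* from 0.18 to 0.13 and of *Mybl2* from 0.26 to 0.16, while it raised that of *E2f1* from 0.18 to 0.21 and of *E2f4* from 0.11 to 0.13. Leaving out 1 sample, where the lone sample is assumed to vary like the others, gave 0 to 3062 genes and 0 to 3 members called over edgeR and DESeq2. The lists then ranged from 0 to 3 (DP and MuvB), 0 to 6 (cyclins and kinases), 0 to 2 (CDK inhibitors, corepressors and turnover), 0 to 4 (E2F6 complex), 0 to 20 (G1/S) and 0 to 21 (mitotic), with 0 cell death genes called throughout, and *Rbl1* from -0.083 to 0.097. Of 37 named genes 26 were called, and all 26 were lost in edgeR without either WT sample, where it called no gene of the table, 25 with the replicate block, 16 without MYC-KI replicate 1 and 3 without MYC-KI replicate 2 (*Cdkn2a*, *Cdkn2b* and *Bbc3*). The cause was not tested.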
